A study of Mus musculus with 8 samples.

Results

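Hsp90ab1 and Ppia encode protein-folding factors of the cytosol, and their RNA levels were followed across normal salivary gland, tumor-adjacent gland and tumor in a mouse model of CRTC1-MAML2 fusion–driven mucoepidermoid carcinoma. They were taken as the 2 protein-folding genes among the 15 genes whose probes carry a RefSeq accession, of 60930 probes on the array. The probes are those for NM_008302 (Hsp90ab1) and NM_008907 (Ppia). Total RNA of 8 tissue samples was hybridized, 1 sample per array, in a single color. The N group (N1, N2) held normal glands of littermates without the fusion transgene. The NAT group (NAT1, NAT2) held gland next to the tumor, and the T group (T1 to T4) held tumors of mice carrying the LSL-CM transgene. In LSL-CM mice the CAG promoter drives the fusion once Cre removes a stop cassette. Per the study's methods and legends Cre came from an MMTV-Cre transgene that is active in salivary ductal cells and that the N littermates also carried. Per the paper, T1 and NAT1 were matched tissues of a mouse, as were T2 and NAT2, whereas T3 and T4 came from separate mice. Ages, sex and the founder line of the arrayed mice are not given in the sources used here.

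The labels conflict for 2 arrays. The source description of NAT2 names the gland next to tumor 1, and that of T2 names gland next to tumor 2. Both were kept in the group that their titles and tissue fields give, and the fold changes without either are stated with the results. The markers of salivary acinar and ductal cells, of immune and stromal cells, and the transgene itself could not be checked, since no gene name is given for those probes in the files used here. For the same reason, the other chaperones, co-chaperones and prolyl isomerases are not analysed here. In bulk tissue, fewer cells of a type and less RNA per cell cannot be told apart.

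HSP90 beta, the product of Hsp90ab1, is the constitutive cytosolic form of HSP90. It binds partly folded client proteins, among them many kinases and steroid hormone receptors, and releases them through a cycle of ATP hydrolysis in which co-chaperones deliver clients and set the pace. The product of Ppia is cyclophilin A, an abundant peptidyl-prolyl cis-trans isomerase that speeds the rotation of the bond before proline during folding and is the intracellular target of cyclosporin A. Both genes are widely expressed and are often used as reference genes. Both also have closely related genes and processed pseudogenes in the mouse genome, so the signal of 1 probe may include RNA of near-identical copies. The probe sequences are not used here.

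The Ppia promoter is shown so that the core promoter elements of a widely expressed gene can be seen. The 250 bases before the annotated start, chr11:6415617-6415866 of GRCm38.p6 on the plus strand, were taken from RefSeq, with the matches to the TATA box (TATAAA) and the GC box (GGGCGG on either strand) in capitals.
Ppia: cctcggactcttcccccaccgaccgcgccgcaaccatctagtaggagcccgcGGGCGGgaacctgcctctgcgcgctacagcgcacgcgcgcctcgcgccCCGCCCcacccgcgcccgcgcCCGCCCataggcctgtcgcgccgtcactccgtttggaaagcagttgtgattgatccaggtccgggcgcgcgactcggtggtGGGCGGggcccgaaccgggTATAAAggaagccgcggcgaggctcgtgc
The TATA box match begins 29 bases before the start, and the 4 GC box matches, 2 on each strand, begin 198, 150, 129 and 48 bases before it. Both strands were searched. Of 32851 promoter windows of the same length, 12.4% held TATAAA and 32.7% held GGGCGG. The full cAMP response element (TGACGTCA), the element to which CREB, the partner of CRTC1, binds, had no match here and was found in 1.55% of windows. The shorter element TGACG, which is the first part of the full element, had 1 match on the other strand, 108 bases before the start, and was found in 17.8% of windows. The core of the heat shock element (GAANNTTC) had no match and was found in 6.69% of windows, and the CCAAT box (CCAAT) had no match and was found in 33.8%. These matches are letters in a window and say nothing about which factor binds.

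All arrays lay on 1 slide. The 75th percentile of log2 intensity, which was subtracted from each array to give the scaled log2 signal, ran from 6.67 to 7.13 in N, from 7.48 to 7.56 in NAT and from 7.73 to 8.42 in T. Of all probes, 57.7% to 59.8% were well above background in N, 64.2% to 66.0% in NAT and 69.9% to 76.3% in T. In T versus N the log2 fold change had a median of 0.29 over the tested probes. With so few arrays per group, every value below is of limited precision.

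Hsp90ab1 was higher in every tumor than in any gland. Its scaled log2 signal was 3.62 in N1 and 2.31 in N2. It was 4.55 in NAT1 and 3.27 in NAT2. It was 7.14 in T1, 6.66 in T2, 6.56 in T3 and 6.49 in T4. The 4 tumors lay close together and above the other 4 arrays, with a gap of 1.94 between the lowest tumor (T4) and the highest gland (NAT1), whereas N and NAT overlapped.

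**Figure D1:**
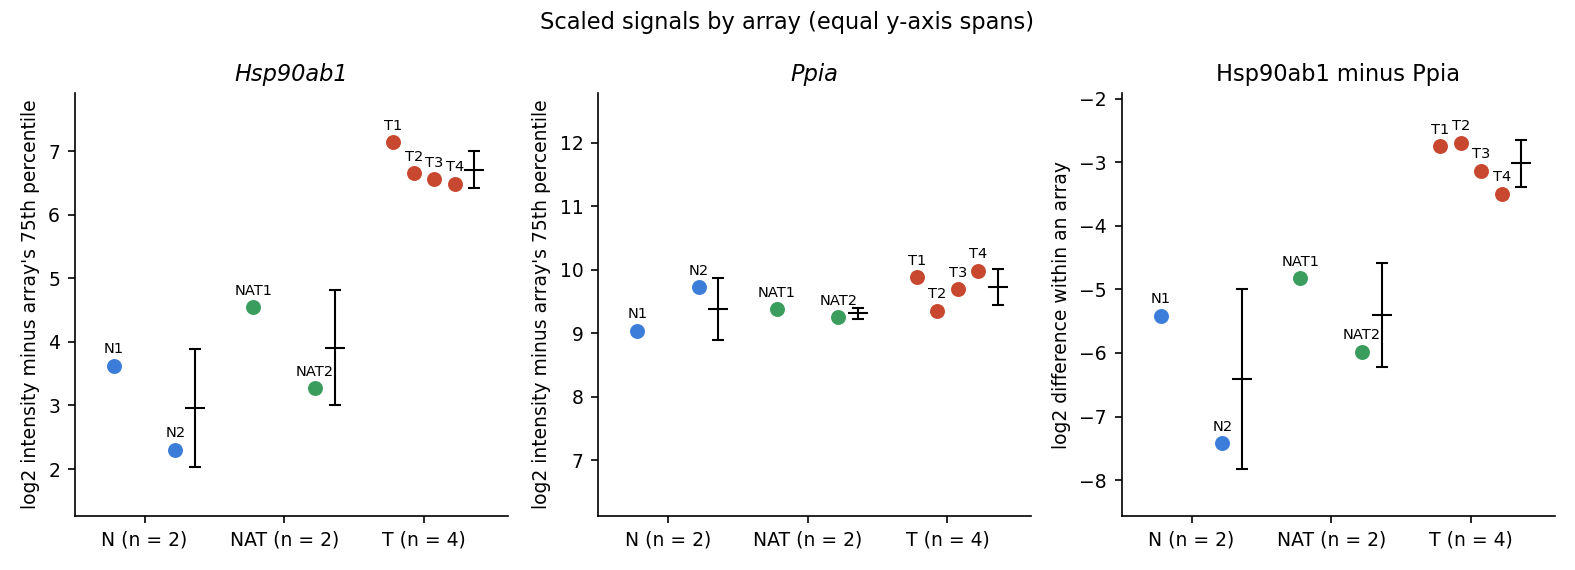
Scaled log2 signal of Hsp90ab1 (left) and Ppia (middle), and the log2 difference Hsp90ab1 minus Ppia within an array (right), for each array of the N (n = 2), NAT (n = 2) and T (n = 4) groups. Black bars are the group mean ± SD, and the y axes have equal spans. The T arrays of Hsp90ab1 lie between 6.49 and 7.14, above all N and NAT arrays (2.31 to 4.55), whereas the Ppia arrays of all groups lie between 9.04 and 9.98.

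The group means of scaled log2 Hsp90ab1 signal were 2.96 ± 0.93 (SD, n = 2) in N, 3.91 ± 0.90 (SD, n = 2) in NAT and 6.71 ± 0.29 (SD, n = 4) in T. The log2 fold change in T versus N was 3.75 (SE 0.49; 95% confidence interval 2.63 to 4.86), a 13.4-fold higher level, with an FDR of 0.000588 in limma. It was 4.40 without N1 and 3.09 without N2, so the size of the change rested on which N array was used. In T versus NAT it was 2.80 (SE 0.49; 95% confidence interval 1.69 to 3.92), a 6.97-fold higher level, with an FDR of 0.0035 in limma. The cutoff for a call was an FDR no higher than 0.05 together with a fold change of 2 or more, and Hsp90ab1 passed it in both comparisons. It was passed in either direction by 48.6% of the 47176 tested probes in T versus N and by 36.5% in T versus NAT, and as higher in T by 27.5% and 20.5%. A call for a probe was therefore common in these tissues. Over the 4 tumors against the N and NAT arrays together, the scaled log2 signal differed by 3.27, or 9.68-fold, with the smallest p that the exact two-sided permutation test allows (p = 0.0286). That test treats the 8 arrays as exchangeable, although NAT and T share mice and the N mice are littermates. The same order, with the lowest tumor above the highest gland, held for 28.2% of 47087 probes measured on every array, and the groups did not overlap in either direction for 50.6%.

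The difference was seen in both matched pairs, of which the second holds the arrays with conflicting labels. Scaled log2 Hsp90ab1 signal was 2.59 higher in T1 than in NAT1 (6.03-fold) and 3.38 higher in T2 than in NAT2 (10.4-fold). On the slide, N1, NAT1, T1 and N2 shared row 1 of arrays and the others row 2. Within row 1, T1 exceeded the mean of N1 and N2 by 4.18 on the log2 scale, and within row 2 the mean of T2 to T4 exceeded NAT2 by 3.30. With the array row as a block, the log2 fold change was 4.39 in T versus N and 3.02 in T versus NAT. Without T2 it was 3.77 in T versus N and 2.82 in T versus NAT, and in T versus NAT it was 2.16 without NAT2 (FDR 0.0385 in limma) and 3.44 without NAT1.

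Hsp90ab1 differed more between the NAT arrays than between the means of NAT and N. The log2 fold change of Hsp90ab1 in NAT versus N was 0.95 (SE 0.56; 95% confidence interval −0.34 to 2.23), with an FDR of 0.878 in limma, so the data did not resolve a difference of this size. N1 exceeded N2 by 1.32 on the log2 scale (2.49-fold), and NAT1 exceeded NAT2 by 1.28 (2.43-fold). NAT1 stood at 0.423 of the distance between the means of N and T, counted from N, and NAT2 stood at 0.0816 of it. The NAT versus N value was 0.29 without N2 and 0.31 without NAT1, and 1.60 without N1 and 1.58 without NAT2. In this comparison 0.0% of tested probes passed the cutoff in limma, whereas 1994 probes (4.23%) had an unadjusted p under 0.05, and the counts by other tests are given with the alternatives.

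The balance between the ends of control transcripts moved with Hsp90ab1. The array carries control probes at the 5′ and 3′ ends of GAPDH and PGK1, with 10 spots each. The log2 signal of the 5′ probe minus that of the 3′ probe for GAPDH was −3.58 to −3.07 in N, −2.89 to −2.38 in NAT and −0.80 to −0.34 in T. For PGK1 it was −8.48 to −7.70 in N, −7.56 to −7.13 in NAT and −5.78 to −4.46 in T. Both were nearest 0 in T and did not overlap between T and the other groups. Their part in the Hsp90ab1 result was not tested.

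Ppia was bright on every array, and its groups overlapped after scaling to the 75th percentile, though not under every scaling. Its scaled log2 signal was 9.04 in N1, 9.73 in N2, 9.38 in NAT1 and 9.25 in NAT2. It was 9.89 in T1, 9.35 in T2, 9.69 in T3 and 9.98 in T4. The tumors and the glands overlapped, with N2 above T2 and T3 and with T2 below NAT1.

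The group means of scaled log2 Ppia signal were 9.38 ± 0.49 (SD, n = 2) in N, 9.31 ± 0.09 (SD, n = 2) in NAT and 9.73 ± 0.28 (SD, n = 4) in T. The log2 fold change was 0.35 (SE 0.32; 95% confidence interval −0.39 to 1.08) in T versus N, with an FDR of 0.388 in limma. It was 0.41 (SE 0.32; 95% confidence interval −0.32 to 1.15) in T versus NAT, with an FDR of 0.333. In NAT versus N it was −0.07 (SE 0.37; 95% confidence interval −0.91 to 0.78), with an FDR of 0.975. Ppia did not pass the cutoff in any of these comparisons, and the intervals for T still include a log2 fold change just over 1. Over the 4 tumors against the N and NAT arrays together the difference was 0.38, or 1.30-fold (exact two-sided permutation p = 0.143). The matched pairs differed by 0.51 for T1 and NAT1 and by 0.10 for T2 and NAT2. Without N1, the T versus N value for Ppia was 0.00, and without N2 it was 0.69. Without T2 it was 0.47 in T versus N and 0.54 in T versus NAT. Without NAT2 it was 0.35 in T versus NAT and −0.0063 in NAT versus N.

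Whether Ppia counted as changed depended on how the arrays were brought to a common scale. Before scaling, the log2 intensity of Ppia was 16.17 in N1, 16.40 in N2, 16.85 in NAT1 and 16.81 in NAT2. It was 17.82 in T1, 17.77 in T2, 17.74 in T3 and 17.71 in T4, so that all tumors lay above all glands. That order was shared by 47.8% of probes on the unscaled arrays. With no scaling, the log2 fold change of Ppia in T versus N was 1.48 (FDR 0.00203 in limma) and passed the cutoff. So did 54.0% of tested probes as higher, and the median over tested probes was 1.42. With the mean of the 13 other genes named by accession subtracted instead, the Ppia value was −1.10 (FDR 0.0245). That passed the cutoff in the opposite direction, as did 48.5% of tested probes, and the median over tested probes was −1.15. With quantile normalization the Ppia value was 0.88 (FDR 0.0227) and with normexp background correction it was 0.66 (FDR 0.0328). Both stayed under the fold change cutoff. All tumors lay above all glands with quantile normalization (17.78 to 17.82 against 16.68 to 17.14) and with normexp (9.14 to 9.63 against 8.51 to 9.06). With the named genes subtracted, all tumors lay below all glands (4.58 to 4.82 against 5.06 to 6.18), and with the median of tested probes subtracted the groups overlapped. The share of all probes with such an order was not counted with quantile normalization, with normexp or with the named genes subtracted. In the scaled log2 signal, 28.2% of probes had all tumors above all glands, and 50.6% did not overlap in either direction. In the fit of the scaled log2 signal, 8 of the 13 other named genes passed the cutoff as higher and 0 as lower in T versus N. The median log2 fold change of the 13 was 1.46. In T versus NAT 6 and 0 did, with a median of 0.99. Of all tested probes, 27.5% passed as higher and 21.0% as lower in T versus N, and 20.5% and 15.9% in T versus NAT.

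**Figure D2:**
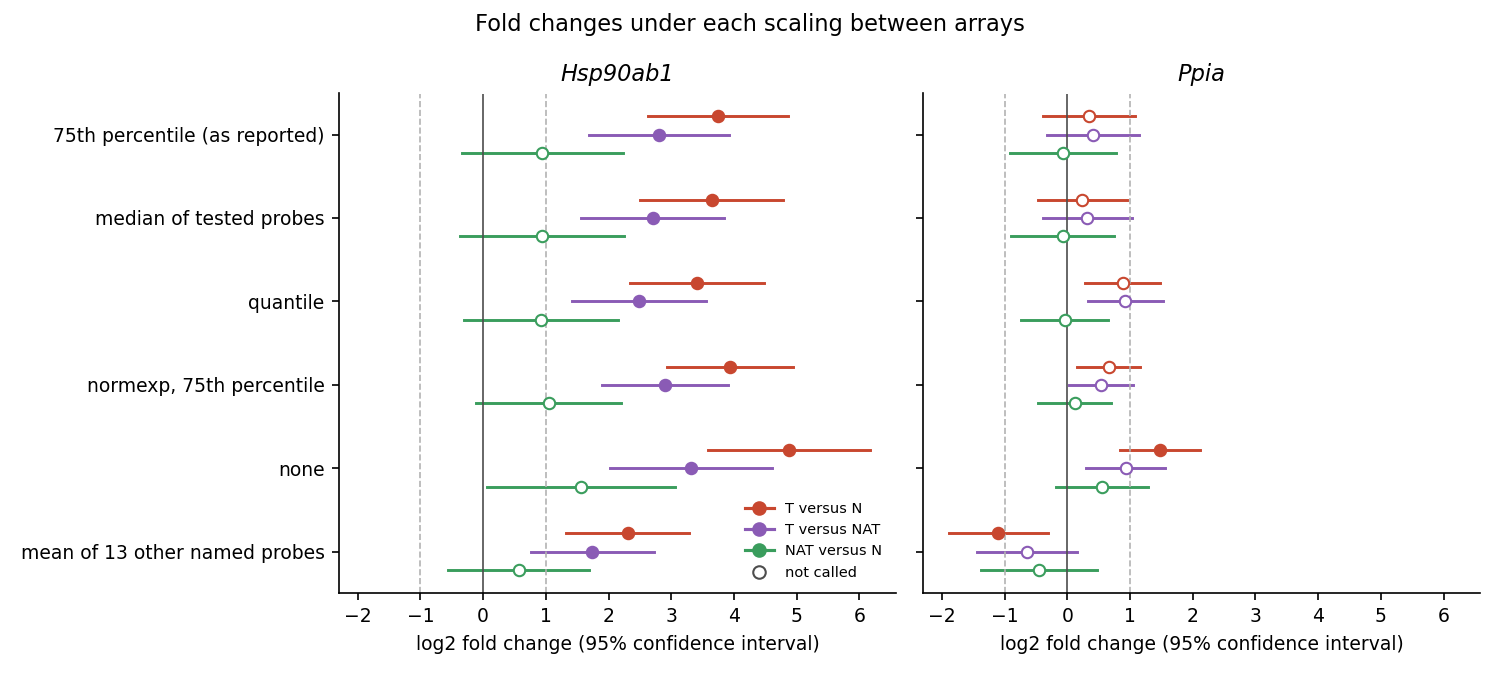
Log2 fold change with its 95% confidence interval (x axis) in limma under 6 ways of scaling the arrays (y axis), for Hsp90ab1 (left) and Ppia (right). Filled points passed the fold change and FDR cutoff, open points did not, and dashed lines mark a fold change of 2. Hsp90ab1 stays filled in both tumor comparisons, from 2.30 to 4.88 in T versus N, whereas Ppia in T versus N runs from −1.10 to 1.48.

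Hsp90ab1 kept its call against both glands under each of those scalings. Its log2 fold change in T versus N was lowest, 2.30, with the mean of the 13 other named genes subtracted and highest, 4.88, with no scaling. In T versus NAT these values were 1.74 and 3.32.

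A difference between the probes on the same array does not depend on a factor applied to the whole array. The log2 difference Hsp90ab1 minus Ppia was −5.42 in N1, −7.42 in N2, −4.83 in NAT1 and −5.98 in NAT2. It was −2.74 in T1, −2.70 in T2, −3.13 in T3 and −3.49 in T4. The tumors again lay above all glands. How many other probes have this order in their difference from Ppia was not counted, and 28.2% of probes had it in the scaled signal. The size of the difference on 1 array mixes RNA level with probe properties, so only its change between arrays is compared. It was 2.89 higher (7.44-fold) in the tumors than in the N and NAT arrays together (exact two-sided permutation p = 0.0286, the smallest possible), and 2.04 higher after quantile normalization. In the matched pairs it was 2.08 higher in T1 than in NAT1 and 3.29 higher in T2 than in NAT2. The Ppia probe stood nearer the top of the measured range on the T arrays than on the others, and the part of that in this difference was not tested.

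Each probe was printed as 20 spots spread over the array. For Hsp90ab1 the mean spot intensity was 1741 in N1, 523 in N2, 4173 in NAT1 and 1833 in NAT2. It was 34556 in T1, 34565 in T2, 25024 in T3 and 19108 in T4. All 160 Hsp90ab1 spots were well above background, 0 were saturated, and 14 were left out as outliers. The coefficient of variation over the spots of an array ran from 1.97% to 24.8%, with the highest on N2. The largest standard error over spots was 0.0885 on the log2 scale, and it covers spots of 1 array, not the spread between animals.

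Among the spots kept, Hsp90ab1 showed a gradient over the array that was larger on the glands than on the tumors. Hsp90ab1 spots in the lower part of the array were brighter than those in the upper part by 0.27 in N1, 0.45 in N2, 0.06 in NAT1 and 0.14 in NAT2 on the log2 scale. On the T arrays the difference lay between −0.03 and 0.01. Outlier removal left 9 or 10 upper spots on the T arrays, 10 on NAT1 and 12 on N1, N2 and NAT2. The upper spots left out on the T arrays were dimmer than the mean of those kept, so the contrast partly reflects which spots were kept. For Ppia the lower part minus the upper part was 0.04 in N1, 0.01 in N2, 0.0014 in NAT1 and 0.0010 in NAT2. It ran from −0.07 to 0.02 on the T arrays. The part of the Hsp90ab1 gradient in the difference between T and gland was not tested. With the median of spots in place of their mean, the log2 fold change of Hsp90ab1 in T versus N was 3.64.

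**Figure D3:**
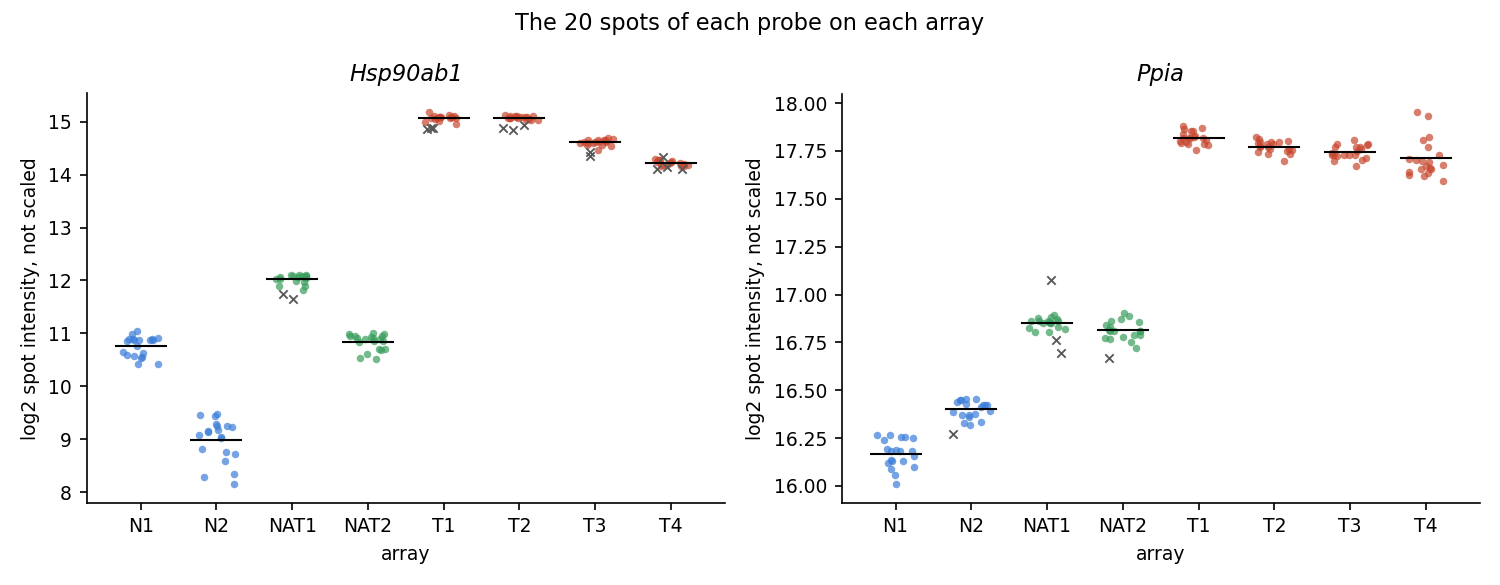
Unscaled log2 intensity (y axis) of the 20 spots of the Hsp90ab1 probe (left) and the Ppia probe (right) on each array (x axis). Points are spots colored by group, gray crosses are spots left out as outliers, and black lines are the array means, and the y axes differ between panels. The Hsp90ab1 spots spread most on N2, and the Ppia means of the T arrays lie between 17.71 and 17.82.

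For Ppia the mean spot intensity was 73787 in N1, 86485 in N2, 118231 in NAT1 and 115331 in NAT2. It was 231443 in T1, 223864 in T2, 219533 in T3 and 215296 in T4. All 160 Ppia spots were well above background, 0 were saturated, and 5 were left out as outliers. The coefficient of variation over the spots of an array ran from 1.80% to 7.15%. On the T arrays the Ppia probe stood at 76.1% to 81.0% of the brightest spot of the array, against 20.3% to 33.3% on the N and NAT arrays. The brightest spot itself was 276341 to 299254 on the T arrays and 328077 to 366327 on the others, below the scanner ceiling of 778162. Before scaling, log2 Ppia intensity spanned only 0.11 among the tumors, whereas the scaled signal spanned 0.63. The part of this position near the top of the measured range in the small unscaled spread was not tested.

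Among the other 14 named genes, the scaled signals most like Hsp90ab1 over the 8 arrays were those of Rpl13a (Pearson r = 0.972), a ribosomal protein gene, Actb (r = 0.969), which encodes beta-actin, and Gusb (r = 0.964), which encodes the lysosomal enzyme beta-glucuronidase. The 9th of the 14 still stood at r = 0.929, and Ppia was 10th, at r = 0.483. In T versus N the log2 fold change was 4.58 for Rpl13a, 3.86 for Gusb and 2.84 for Actb, against 3.75 for Hsp90ab1. The genes most like Ppia were Hprt (r = 0.732), which encodes a purine salvage enzyme, Gusb (r = 0.642) and Rpl13a (r = 0.638). These values describe 8 arrays that fall into tumors and glands and that share the slide and the scaling, and they say nothing of shared control.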

How the data were processed

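RNA of 8 mouse salivary tissues was profiled on the Arraystar Mouse LncRNA/mRNA Array v3.0. Per the labels, RNA was freed of rRNA, amplified with random primers and labeled with Cy3. The deposited scanner output gives linear spot intensity after background subtraction in Agilent Feature Extraction 11.0.1.1, with no scaling across arrays. A deposited log2 table covers 42830 probes and has a common distribution across arrays, but how it was normalized is not given in the sources used here. It held 0 of the 15 named probes and was not used.

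After removal of control spots and of spots flagged as outliers, the log2 intensities of a probe's spots were averaged and the 75th percentile of the array was subtracted. Probes that 2 or more arrays showed well above background (47176) entered a single fit of all 3 groups in limma 3.58.1 (R 4.3.3; lmFit, eBayes), and p-values were adjusted by Benjamini-Hochberg over all tested probes within a comparison (FDR). A call needed an FDR no higher than 0.05 and a fold change of 2 or more. Comparisons of T with N and NAT together used exact two-sided permutation tests (scipy 1.17.1, Python 3.11.15) over all 70 assignments.

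Samples were grouped by title and tissue. The members and lists were chosen with earlier results of these data known. The named genes are the members and, of the other genes named by accession, the 3 with the highest Pearson r with each over the 8 arrays. All 15 accessions matched a symbol. The lists of chaperones and of cell type markers could not be run.

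The paper matches NAT with T of the same number, and the labels tie N1 and N2 to the mice of tumors 1 and 2 as littermates, but the source description of NAT2 names tumor 1. Deviations from the group means had a correlation across probes of −0.0949 for the NAT1–T1 pair and −0.248 for NAT2–T2. It was 0.149 for both N–NAT pairs, 0.0206 for N1–T1 and 0.0786 for N2–T2. NAT and T share mice, and the permutation tests and the fits without the block treat all arrays as independent. Alternatives were normexp (offset 50) applied to spot medians, quantile normalization, other or no scaling, other filters on dim probes, spot averages with flagged spots or by medians, only the arrays compared, the replicate number or the array row as a block, robust shrinkage with an intensity trend, a stricter FDR of 0.01, the methods' t-test, and each array left out in turn.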

Additional observations from a re-analysis of the deposited data

How the results depend on the processing

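For Hsp90ab1, 25 of 25 alternatives kept the direction and the call in T versus N (log2 fold change 2.30 to 4.88, 3.09 to 4.40 with 1 array left out, FDR 0.000248 to 0.00867 over all) and in T versus NAT (1.74 to 3.32, 2.16 to 3.44 with 1 array left out, FDR 0.00184 to 0.0385 over all), and none made a call in NAT versus N (0.56 to 1.56, 0.29 to 1.60 with 1 array left out). With the replicate number as a replicate block, the Hsp90ab1 values were 3.93 in T versus N and 2.99 in T versus NAT as a fixed term, and 3.74 and 2.80 as a random term; for Ppia the fixed block gave 0.24 and 0.30, and the replicate block changed no call of either gene. Ppia was called higher in T versus N with no scaling (1.48) and lower with the mean of the 13 other named probes subtracted (−1.10). That subtraction also turned its T versus NAT value to −0.65. The T versus NAT value of Ppia was 0.93 both with quantile normalization (FDR 0.0257 in limma) and with no scaling (FDR 0.0272 in limma). Both stayed under the fold change cutoff. Its NAT versus N value turned to 0.12 with normexp, 0.55 with no scaling, 0.020 with the array row as a block and 0.28 without N2 (−0.41 to 0.28 with 1 array left out). Leaving out 1 array gave 0.00 to 0.69 for Ppia in T versus N and 0.33 to 0.54 in T versus NAT. Against N and NAT together, Ppia differed by 0.60 with normexp, 0.91 with quantile normalization, 1.20 with no scaling (exact permutation p = 0.0286 each) and −0.87 with the named probes subtracted (p = 0.0286, exact permutation), and by 0.28 to 0.51 with 1 array left out. How many probes reach an exact permutation p of 0.0286 was not counted with normexp, quantile normalization or the named probes subtracted. With 1 array left out, the smallest possible exact permutation p is 0.0571, which Hsp90ab1 (2.90 to 3.65) and Hsp90ab1 minus Ppia (2.39 to 3.26) both reached.

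Of the tested probes, 22904 were called in T versus N (12989 higher, 9915 lower), 14736 with normexp and 16776 to 22997 with 1 array left out. In T versus NAT, 17196 were called (9693 higher, 7503 lower), 10787 with normexp, 9218 at an FDR of at most 0.01, 9606 by the methods' t-test after Benjamini-Hochberg, and 7855 (without NAT2) to 17462 with 1 array left out. In NAT versus N, 0 were called, against 312 by the methods' t-test unadjusted and 0 to 161 with 1 array left out (161 without NAT2, 1 without N2, 1 without NAT1). The split depended on scaling: in T versus N it was 25493 higher and 4069 lower with no scaling, and 3966 and 22859 with the named probes subtracted, where the median over tested probes was 1.42 and −1.15; in T versus NAT it was 15589 and 4427, and 3217 and 17364. The cause of these changes was not tested. The deposited log2 table held neither gene and was not run.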
